A study of Rattus norvegicus with 32 samples.

Results

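The genes described here were the 4 class IIa histone deacetylases, Hdac4, Hdac5, Hdac7 and Hdac9, and 3 transcription factors of the MEF2 family, Mef2a, Mef2c and Mef2d. They were picked by gene symbol, 7 of the 28914 genes in the count files, and all 7 had enough reads to be tested in every comparison. The libraries were bulk RNA-seq from 4 brain regions of adult male Sprague-Dawley rats weighing 250 to 300 g on arrival: the nucleus accumbens (NAc), the dentate gyrus (DG), the cornu ammonis (CA) of the hippocampus and the subventricular zone (SVZ). METH rats received (+)-METH hydrochloride at 10 mg/kg and control rats (Sal) saline at 1 mL/kg, both as 4 intraperitoneal injections 2 h apart, with dissection 24 h after the end of dosing. Each of the 8 groups held 4 libraries, 32 in all. The labels name no allele or transgene.

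Class IIa HDACs bind MEF2 proteins on DNA and repress MEF2 target genes. They have little deacetylase activity of their own and recruit HDAC3 with its corepressor complex. Kinases of the CaMK, PKD and SIK families phosphorylate them, after which 14-3-3 proteins hold them in the cytoplasm, so neuronal activity controls them largely through their location in the cell. MEF2 factors control neuronal survival and synapse number and are activated by calcium through calcineurin. HDAC5 in the NAc is known for limiting responses to cocaine reward. RNA level says nothing about phosphorylation or location.

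In rn6 coordinates the members lay at chr9:99057089-99299715 (Hdac4, minus strand), chr10:90140183-90151042 (Hdac5, minus), chr7:139281187-139318455 (Hdac7, minus), chr6:53488883-54059119 (Hdac9, minus), chr1:128209971-128341263 (Mef2a, minus), chr2:11658568-11822787 (Mef2c, plus) and chr2:187512164-187538026 (Mef2d, plus). Hdac9 overlapped LOC108348062 on the opposite strand, and reads were counted without strand per the file headers, so reads of these genes cannot be told apart. The other 6 overlapped no annotated gene.

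RefSeq promoters (GRCr8) were matched for 6 of the 7 members, all but Mef2c. The 250 bases before the start were searched on both strands for the MEF2 consensus. It was found in Hdac5 and Mef2a, that is 2 of 6 members (33.3%), against 2.96% of all 33469 promoters in the table. These are also the 2 members on which most of the values below turn, and both are printed for that reason, 5′ to 3′ on the gene's strand with the match in capitals. The Hdac5 window is chr10:87688055-87688304 and its match begins 52 bases before the start. The Mef2a window is chr1:130392163-130392412, with the match beginning 40 bases before the start.
Hdac5: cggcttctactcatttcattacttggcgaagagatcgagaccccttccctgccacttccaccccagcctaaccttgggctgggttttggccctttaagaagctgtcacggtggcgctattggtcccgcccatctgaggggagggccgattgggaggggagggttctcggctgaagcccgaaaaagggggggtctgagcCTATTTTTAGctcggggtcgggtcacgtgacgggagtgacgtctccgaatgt
Mef2a: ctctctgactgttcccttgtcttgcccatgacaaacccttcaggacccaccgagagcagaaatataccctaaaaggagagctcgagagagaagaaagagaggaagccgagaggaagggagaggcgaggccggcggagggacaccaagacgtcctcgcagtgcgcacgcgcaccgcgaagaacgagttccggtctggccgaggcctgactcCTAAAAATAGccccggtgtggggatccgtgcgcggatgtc
The full cAMP response element TGACGTCA was in 0 of the 6 promoters and in 1.59% of all. Its first bases, TGACG, which the full element also contains, were in Hdac4 and Hdac5, with 2 copies each, against 18.2% of all promoters. A match is a run of letters and does not show that a factor binds there.

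Libraries held 11094002 to 21869773 read pairs assigned to genes, and the members had from 132 read pairs (the lowest Hdac7 library) to 14809 (the highest Mef2c library). Levels are given in CPM, the read pairs of a gene scaled to library size. The labels do not say whether replicates were single animals, so p-values measure the spread between these libraries, and regions may share animals. Some libraries stood apart. In NAc, Sal carried library numbers 14, 15, 22 and 23 and METH 20, 21, 24 and 25 in the file headers, and CA followed the same scheme, but DG Sal replicates 1 and 2 carried 20 and 21 and DG METH replicates 1 and 2 carried 14 and 15. The 4 SVZ METH libraries carried only 2 numbers, 1669 and 1670. The summed level of 4 dentate granule neuron markers (Prox1, C1ql2, Dsp, Tdo2) overlapped between the hippocampal dissections, at 28.2 to 201 CPM in DG Sal and 46.1 to 398 in CA Sal. Striatal markers were high in DG Sal replicate 3 (2011 CPM, against 241 to 338 in the other DG Sal libraries) and low in NAc METH replicate 3 (268 against 3371 to 3938). DG Sal replicate 3 also held 8.64 CPM of pallial glutamatergic neuron markers, against 1304 to 1788 in the other DG Sal libraries. Values with and without the doubtful DG libraries are given below.

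**Figure D1:**
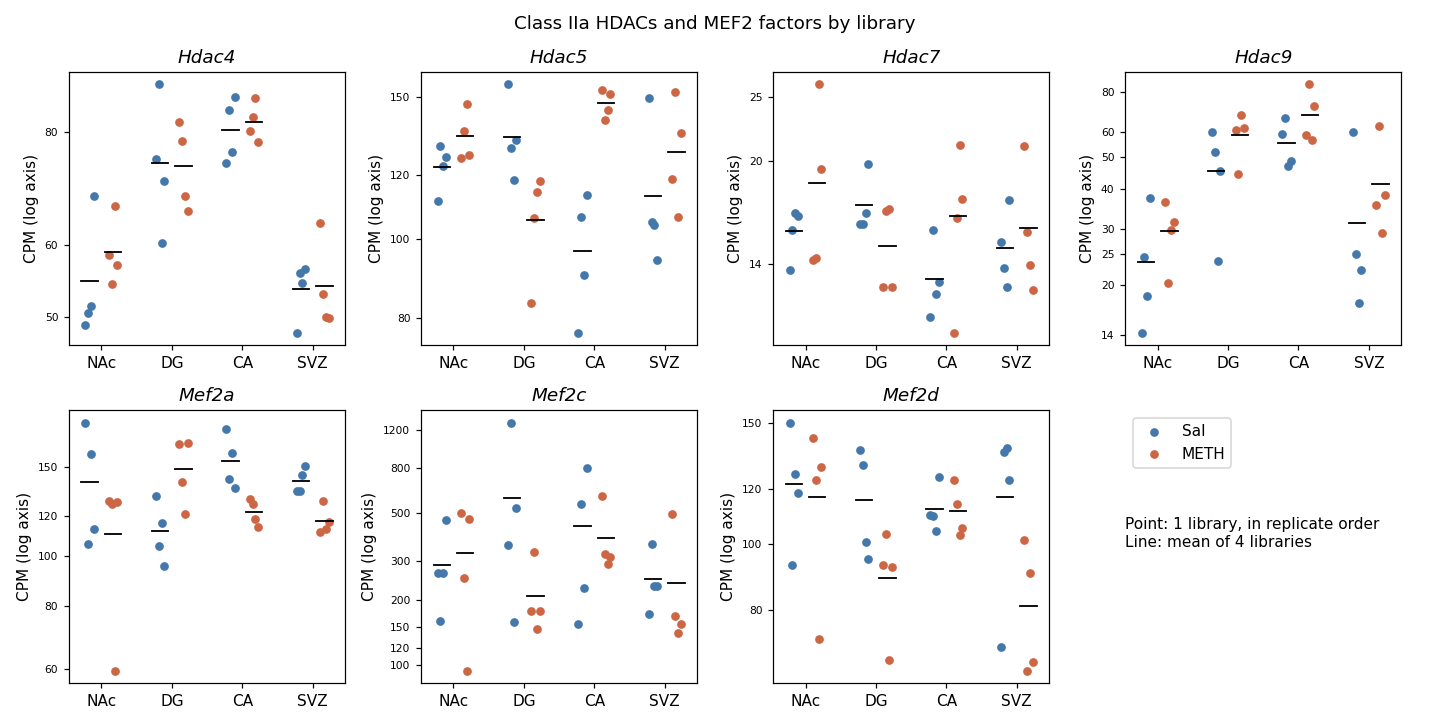
Level of each member in each library in CPM after upper-quartile normalization (log axis), by region, with saline and METH libraries in separate columns. Points are libraries and lines group means. For Hdac5, the METH libraries of the CA (140 to 153 CPM) all lie above its saline libraries, and those of the DG (83.5 to 118 CPM) below theirs.

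Levels between genes were compared per kb of exon. In saline libraries Mef2d, with group means of 52.5 to 57.1 CPM per kb, Mef2c (38.5 to 90.3), Hdac5 (33.0 to 45.7) and Mef2a (32.9 to 45.3) were the abundant members. Neighbours in the order of these 4 overlapped over libraries, except that Hdac5 lay above Mef2a in the DG and below it in the CA. Hdac4 followed at 13.4 to 20.1 CPM per kb. Hdac9 (3.33 to 7.78) and Hdac7, the member best known from thymocytes and endothelium (4.05 to 5.23), were lowest. Hdac5 was thus the most abundant class IIa HDAC mRNA in each of the 4 regions, and no saline library of Hdac4, Hdac7 or Hdac9 reached its lowest value in the same region. The remaining family member, Mef2b, was near the detection limit at 0.108 to 0.475 CPM.

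**Figure D2:**
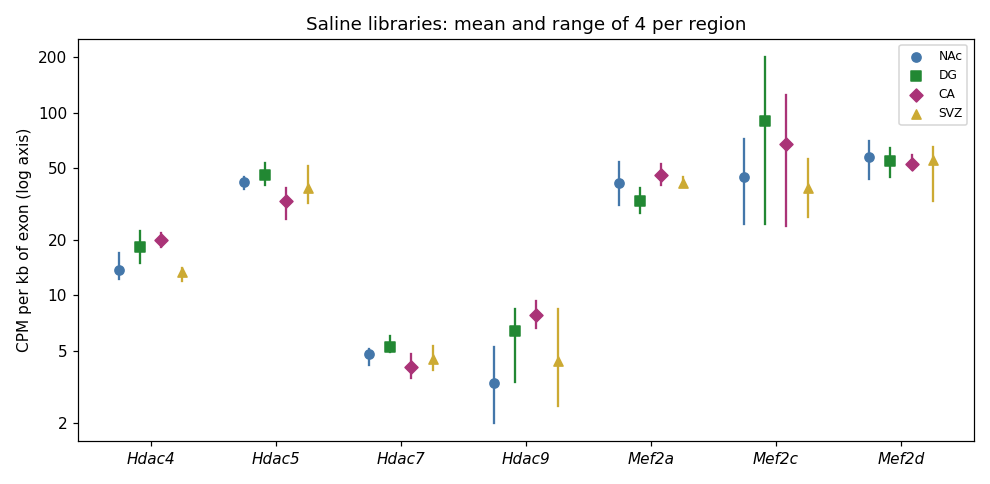
Mean (symbol) and range (bar) of the 4 saline libraries of each region, in CPM per kb of exon on a log axis. Hdac5 and the 3 MEF2 factors lie above Hdac4, and Hdac7 and Hdac9 lie lowest, while Mef2c has the widest ranges.

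The first comparison asked how the members differ between regions in the 16 saline libraries. Hdac4, which shuttles to the nucleus when neuronal activity is low, was higher in the hippocampal regions. Its 4 libraries held 73.9, 84.6, 75.9 and 87.3 CPM in the CA and 74.7, 90.2, 60.4 and 70.6 in the DG, against 49.0, 50.6, 51.5 and 67.9 in the NAc and 48.1, 55.9, 54.5 and 56.5 in the SVZ. No CA or DG library lay below an SVZ library. In bulk tissue, fewer cells of a type and less RNA per cell cannot be told apart. The CA was above the mean of the other regions by 0.42 ± 0.10 on the log2 scale (SE) and above the SVZ by 0.58 ± 0.13 (the fit gives SVZ minus CA as -0.58, Benjamini-Hochberg adjusted p = 0.0147 from the quasi-likelihood fit in edgeR). The test over any difference between regions gave Hdac4 an adjusted p of 0.0284 by the same test. All SVZ libraries carried a file-header prefix that no library of the other regions carried. In every comparison that includes the SVZ, region and prefix therefore cannot be told apart.

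Hdac9, which is known as a MEF2-bound repressor in muscle and neurons, was likewise highest in the CA and DG. Its means were 55.3 ± 9.09 (SD, n = 4) CPM in the CA, 45.2 ± 15.5 in the DG, 31.2 ± 19.5 in the SVZ and 23.6 ± 10.0 in the NAc. Neighbours in that order overlapped. SVZ Sal replicate 1 held 60.1 CPM, against 17.6 to 24.96 in the other SVZ Sal libraries. It also held 1617 CPM of thalamic neuron markers, against 68.9 to 208 in the others. DG Sal replicate 3, the library with striatal markers, held 23.8 CPM of Hdac9, against 45.3 to 59.9 in the other DG Sal libraries. Outside these libraries the DG and the SVZ did not overlap. Means and fits without both are not given here. The CA was above the mean of the other regions by 0.78 ± 0.30 and the NAc below it by 0.85 ± 0.33 on the log2 scale. With each saline library left out in turn, the CA value ran from 0.68 to 0.96 and the NAc value from -1.16 to -0.67. Hdac5 was highest in the DG (134 ± 15.5 CPM) and lowest in the CA (96.7 ± 16.5), with no overlap, and the fit gave the CA minus the DG as -0.47 ± 0.15 on the log2 scale (adjusted p = 0.482 by edgeR). Mef2a had the opposite order of these regions, with 154 ± 18.9 CPM in the CA and 112 ± 15.3 in the DG. Mef2d, the member with the closest group means, was between 112 and 122 CPM in all 4.

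At the call rule used for regions (adjusted p under 0.01 and over 2-fold), 0 members were called in any region, where the background over 15515 genes was 0% in the NAc, 0% in the DG, 0.264% in the CA and 0.0645% in the SVZ. The test over any region difference called 0 members and 0% of genes. At an unadjusted p under 0.05 the members were 2 in the NAc (15.0% of all genes), 4 in the DG (6.78%), 4 in the CA (25.7%) and 1 in the SVZ (25.4%), and 3 in the test over regions (26.7%). Without DG Sal replicate 3 the test over regions called Hdac4 (adjusted p = 0.0088 by edgeR), and the share of all genes called in that fit is not given here.

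The second comparison asked what METH did to the members in each region. No gene of any kind passed the call rule (adjusted p under 0.01 and over 1.5-fold), so by edgeR the members called were 0 in each region against 0% of all genes tested, and DESeq2 also called 0 members in each. The members were therefore also counted at an unadjusted p under 0.05.

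In the DG, 3 of 7 members were past an unadjusted p of 0.05 (12.8% of 14800 genes were). Hdac5 held 155, 130, 118 and 132 CPM in Sal and 83.5, 106, 114 and 118 in METH, so the METH libraries were all lower, although the lowest Sal library (replicate 3, with striatal markers) and the highest METH library nearly met. The log2 fold change was -0.34 ± 0.14 (SE), with an adjusted p of 0.353 by edgeR. Mef2a held 131, 105, 116 and 95.6 CPM in Sal and 166, 140, 121 and 167 in METH. METH was higher in 15 of 16 library pairs, by 0.41 ± 0.14 (adjusted p = 0.288 by edgeR). Mef2c, the MEF2 factor most tied to cortical and hippocampal synapse development, held 354, 1295, 158 and 523 CPM in Sal and 178, 330, 147 and 177 in METH. Its log2 fold change of -1.48 ± 0.58 rested on 1 library, since without DG Sal replicate 2 it was -0.73. Mef2d held 137, 130, 100 and 94.9 CPM in Sal and 93.0, 103, 67.6 and 92.4 in METH, a log2 fold change of -0.38 ± 0.17 (unadjusted p = 0.0527 by edgeR). Hdac4 (-0.01 ± 0.14), Hdac7 (-0.20 ± 0.14) and Hdac9 (0.38 ± 0.27) overlapped between the groups. Hdac9 in Sal held 59.9, 52.0, 23.8 and 45.3 CPM, where the low library was replicate 3, the one with striatal markers, and in METH 60.7, 44.3, 67.9 and 61.8.

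Hdac5 and Mef2a in the DG were also computed without the libraries of doubtful number. With replicates 1 and 2 of both DG groups left out, the log2 fold change of Hdac5 was -0.11 ± 0.15, while that of Mef2a was 0.44 ± 0.23, so the Hdac5 value in the remaining 4 libraries was smaller than its SE. The library numbers leave it unsettled whether Sal and METH are exchanged in replicates 1 and 2. This was not tested, the labels were kept as given, and the DG direction of Hdac5 rests on them. One of the 2 remaining Sal libraries was replicate 3, with striatal markers. Without that library alone, Hdac5 was at -0.39 ± 0.14 and Mef2a at 0.43 ± 0.16.

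In the CA, 2 of 7 members were past an unadjusted p of 0.05 (7.16% of 14612 genes). Hdac5 held 76.7, 106, 90.4 and 113 CPM in Sal and 153, 140, 145 and 151 in METH. All METH libraries were higher than any Sal library, and the METH group was the tighter one (SD 5.75 against 16.5). The log2 fold change was 0.60 ± 0.12, or 1.52-fold, with an unadjusted p of 0.000575 and an adjusted p of 0.525 by edgeR, and Hdac5 ranked 16 of 14612 genes. Mef2a held 178, 142, 160 and 136 CPM in Sal and 129, 127, 118 and 114 in METH. Here all METH libraries were lower, by -0.34 ± 0.10 on the log2 scale (adjusted p = 0.669 by edgeR). Hdac7 (0.32 ± 0.19) and Hdac9 (0.30 ± 0.16) were higher but overlapped between groups, and Mef2c (-0.19), Mef2d (-0.01) and Hdac4 (0.03) differed by less than their SE. With RUVr factors for unwanted variation as covariates, the step the study describes, Hdac5 in the CA had an adjusted p of 0.271 with 1 factor, 0.0273 with 2 and 0.000924 with 4 by edgeR, and DESeq2 gave 0.0102. The RUVr factors come from the residuals of the same libraries around the group means, so they absorb spread within groups. A falling p with more factors is therefore partly built in, and the number of factors the authors used was not given.

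In the SVZ, 1 of 7 members was past an unadjusted p of 0.05 (2.58% of 15579 genes). Mef2a held 135, 134, 144 and 150 CPM in Sal and 112, 129, 113 and 117 in METH, with no overlap, and its log2 fold change was -0.26 ± 0.09 (adjusted p = 0.979 by edgeR). With libraries of the same number summed, which leaves 2 METH samples, it was -0.28 with an unadjusted p of 0.0597. Libraries of the same number were not the most alike, however. The chi-square per gene between METH libraries was 124 for replicates 1 and 2 (1669). It was 107 for replicates 3 and 4 (1670), but 15.4 for replicates 2 and 4. Mef2d was lower in 14 of 16 pairs, at 70.6, 136, 138 and 124 CPM in Sal against 101, 65.2, 90.7 and 67.2 in METH (-0.53 ± 0.24). The only low Sal library of Mef2d was replicate 1, which also carried 1617 CPM of thalamic neuron markers against 68.9 to 208 in the other SVZ Sal libraries. The low Mef2d libraries, Sal replicate 1 and METH replicates 2 and 4, held oligodendrocyte marker sums of 19498, 26852 and 28571 CPM, against 4071 to 9967 in the other 5, and striatal marker sums of 339, 240 and 904, against 1762 to 6457. The SVZ METH libraries held 123, 1441, 445 and 974 CPM of the thalamic neuron markers, in replicate order. Without Sal replicate 1, but with all of these METH libraries kept, the Mef2d value was -0.71 (unadjusted p = 0.0042 by edgeR). With METH in the SVZ the oligodendrocyte list had a median of 0.83 and the striatal list of -1.26 on the log2 scale. The part of these markers in the result was not tested. Hdac4 (0.01 ± 0.11), Hdac5 (0.18 ± 0.17), Hdac7 (0.10 ± 0.18), Hdac9 (0.41 ± 0.41) and Mef2c (-0.05 ± 0.44) overlapped between the groups.

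In the NAc, 0 of 7 members were past an unadjusted p of 0.05 (3.39% of 14771 genes). Hdac5 held 112, 130, 123 and 126 CPM in Sal and 126, 136, 147 and 127 in METH, a log2 difference of 0.14 ± 0.09 (2 SE either side, -0.04 to 0.32). Mef2a held 183, 106, 159 and 113 CPM in Sal and 128, 127, 59.5 and 128 in METH. Its lowest library, METH replicate 3, was the one with low striatal markers. Mef2d (72.5 CPM) and Mef2c (94.1 CPM) were also lowest in that library, and Hdac7 (26.1 CPM) and Hdac5 (147 CPM) highest. The other log2 differences were 0.12 ± 0.12 for Hdac4, 0.26 ± 0.20 for Hdac7, 0.33 ± 0.30 for Hdac9, 0.20 ± 0.50 for Mef2c and -0.05 ± 0.22 for Mef2d.

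The counts of members with no overlap between Sal and METH were 0 in the NAc (2.26% of all genes tested), 1 in the DG (7.39%), 2 in the CA (4.43%) and 1 in the SVZ (1.60%). Averaged over the 4 regions, METH against Sal was 0.35 ± 0.16 for Hdac9, 0.14 ± 0.07 for Hdac5 and -0.24 ± 0.10 for Mef2d, the 3 members past an unadjusted p of 0.05 (7.83% of 16122 genes). The call rule gave 0 members and 0% of genes. The count of 3 ran from 1 to 3 with each library left out, and Hdac5 missed that level in 21 of 32 such fits and Hdac9 in 18. For Hdac9 the fitted difference was positive in each region (0.33 in the NAc, 0.38 in DG, 0.30 in CA, 0.41 in SVZ), and METH was higher in 11, 13, 12 and 13 of 16 pairs.

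**Figure D3:**
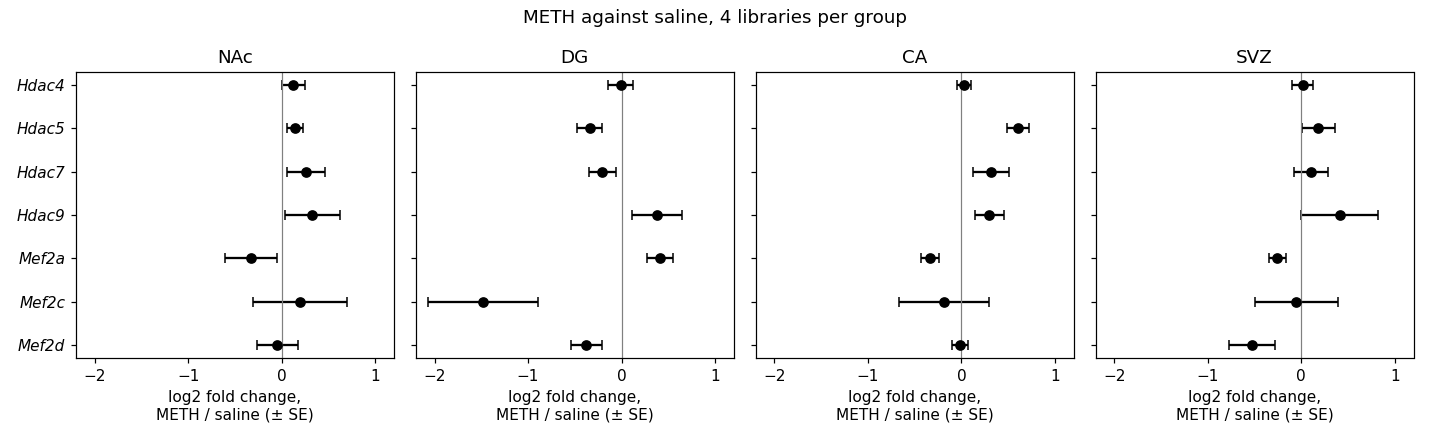
Log2 fold change of METH against saline for each member in each region, from edgeR with 4 libraries per group. Points are estimates and bars ± SE. Hdac5 lies at -0.34 in the DG and 0.60 in the CA, and Mef2a at 0.41 and -0.34.

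The third comparison asked whether the METH effect differed between the DG and the CA, tested in the 16 libraries of those regions. It was chosen because the study had named Hdac5 for opposite changes in these regions, from the same data. The rank and p-values of Hdac5 in it are therefore not independent of that choice. Hdac5 and Mef2a each had opposite signs in the 2 regions, and opposite to each other. The DG effect minus the CA effect was -0.95 ± 0.18 on the log2 scale for Hdac5 (unadjusted p = 0.000116, adjusted p = 0.126 by edgeR, rank 8 of 15308 genes) and 0.74 ± 0.17 for Mef2a (unadjusted p = 0.000745, adjusted p = 0.126, rank 84). Hdac7 had -0.53 ± 0.24 (adjusted p = 0.317). Mef2c had -1.30 ± 0.82, Mef2d -0.37 ± 0.19, Hdac9 0.07 ± 0.33 and Hdac4 -0.05 ± 0.16. So 3 of 7 members were past an unadjusted p of 0.05, where 15.4% of all genes were, and 0 passed the call rule (0% of genes). DESeq2 called Hdac5 (adjusted p = 0.0025), and edgeR with 4 RUVr factors called Hdac5 and Mef2a (adjusted p = 0.0062 and 0.0048). The 0% of genes belongs to the main edgeR fit, and the share of all genes called in these 2 settings is not given here. The test over all 4 regions gave Hdac5 an unadjusted p of 0.000564 and Mef2a 0.0174 by edgeR, 2 of 7 members where 7.74% of genes were past 0.05, with 0 members and 0% of genes at an adjusted p under 0.01.

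The difference between regions was also computed without the doubtful libraries. Without replicates 1 and 2 of both DG groups the difference was -0.72 ± 0.20 for Hdac5 and 0.77 ± 0.21 for Mef2a. The DG value of Hdac5 in these libraries (-0.11) was below its SE, so an opposite sign in the DG was not shown for it there. With each of the 16 libraries left out in turn the DG effect minus the CA effect ran from -1.03 to -0.85 for Hdac5 and from 0.67 to 0.83 for Mef2a. The dentate granule neuron markers differed in the same contrast. Their summed level was 201, 28.2, 37.7 and 90.8 CPM in DG Sal, 415, 352, 73.2 and 266 in DG METH, 335, 46.1, 398 and 112 in CA Sal and 67.5, 86.7, 199 and 123 in CA METH. The median of the 3 markers tested was 2.68 on the log2 scale for the DG effect minus the CA effect, against -0.03 for all genes. Of these, 2 of 3 were higher at an unadjusted p under 0.05 and 0 lower, where 15.4% of all genes were past it. In the same contrast the striatal list had a median of -2.88 with 3 of 8 lower, and the immediate early list a median of -1.20 with 2 of 6 lower. For METH in the DG itself the immediate early list had a median of -0.80, with 2 of 6 lower at the same level (12.8% of all genes). The part of these markers in the Hdac5 and Mef2a values, and in those of the kinase, calcineurin, Pcdh10 and other list genes given further on, was not tested. Values of those list genes are not given without the doubtful DG libraries.

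**Figure D4:**
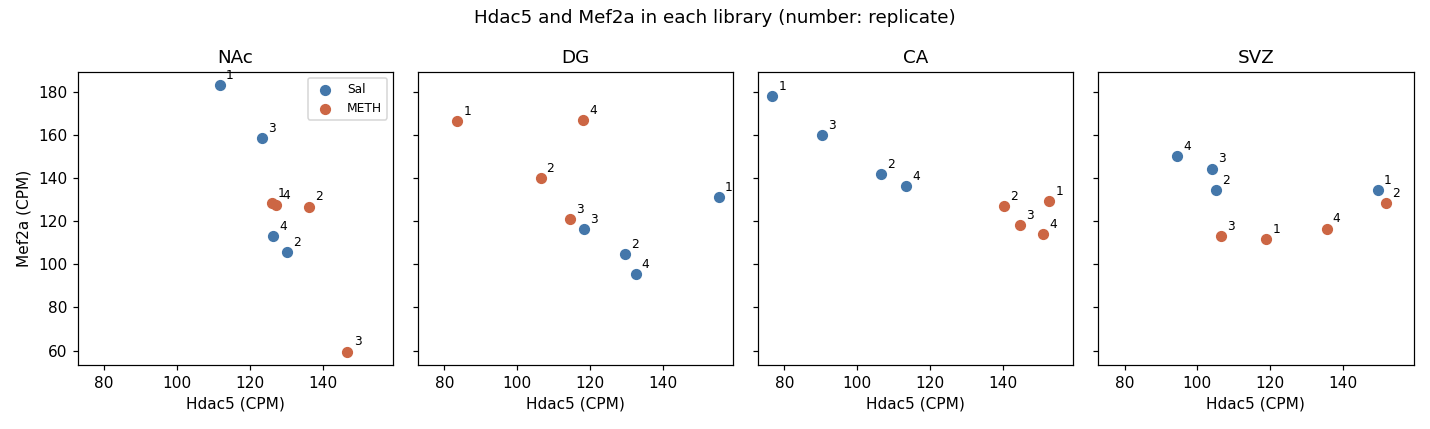
Hdac5 (horizontal axis, CPM) against Mef2a (vertical axis, CPM) in each library, 1 panel per region, with the replicate number beside each point. In the CA the METH libraries lie to the lower right of the saline libraries, and in the DG mostly to the upper left, with Mef2a higher in METH in 15 of 16 pairs.

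Hdac5 and Mef2a were negatively related over the 32 libraries (Pearson r = -0.56 of log2(CPM + 1)), and 0.657% of 16122 genes had a lower r with Hdac5. The r was -0.31 after the mean of each of the 8 groups was subtracted, and 22.0% of genes then had a lower r with Hdac5. Hdac7 and Mef2a gave -0.68 and -0.58, and Mef2c and Mef2d 0.61 and 0.60. These are descriptions over libraries that share groups and possibly animals. The genes most like each member over the 32 libraries were Bmp3 for Hdac4 (r = 0.92), Irak3 for Hdac5 (0.79), Sh3pxd2b for Hdac7 (0.76), AABR07027407.1 for Hdac9 (0.95), Ywhaz for Mef2a (0.83), Nlk for Mef2c (0.91) and Myt1l for Mef2d (0.94). Within groups Nlk stayed first for Mef2c (0.95) and Myt1l for Mef2d (0.97), while Grb14 was first for Hdac5 (0.83) and Kcna4 for Mef2a (0.88). Ywhaz encodes a 14-3-3 protein.

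The kinases of class IIa HDACs formed the longest of the related lists. Counts of list genes here are at an unadjusted p under 0.05, which 12.8% of all genes reached in the DG, 3.39% in the NAc, 7.16% in the CA and 2.58% in the SVZ. Of 16 kinases, 3 were higher and 5 lower with METH in the DG (list median -0.21 on the log2 scale, all genes -0.01) and 1 was higher and 3 lower in the CA (0.04 against 0.01). The SVZ had 0 higher and 3 lower, and the NAc 1 higher. None passed the call rule. Camk1d, a calcium-activated CaM kinase, had the smallest p of the list in the DG, with 131, 135, 110 and 100 CPM in Sal and 196, 240, 187 and 233 in METH (0.85 ± 0.13), and its values were -0.48 ± 0.21 in the CA and -0.55 ± 0.16 in the SVZ. The groups did not overlap in the DG. Sik1, a salt-inducible kinase that holds class IIa HDACs in the cytoplasm, went the other way, at 34.1, 18.6, 38.9 and 21.0 CPM in DG Sal against 16.5, 14.3, 18.6 and 13.1 in DG METH, and 10.2, 16.7, 10.4 and 21.9 in CA Sal against 34.3, 26.8, 18.8 and 28.8 in CA METH. The DG effect minus the CA effect was 1.32 ± 0.26 for Camk1d and -1.74 ± 0.40 for Sik1, both with an adjusted p of 0.126 by edgeR. Over the list 3 kinases were higher and 4 lower in this contrast with unadjusted p below 0.05, where 15.4% of all genes were past it.

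The other kinases past it in that contrast were subunits of CaMKII, the abundant postsynaptic calcium kinase, with Camk1 and Sik2. Camk2a had 1.17 ± 0.43 and Camk2b 1.29 ± 0.32, while Camk2d had -2.07 ± 0.66, Camk1 -0.69 ± 0.21 and Sik2 -0.67 ± 0.24. So the neuron-enriched CaMKII subunits and Camk2d lay in opposite directions. Camk2d held 119, 124, 160 and 77.0 CPM in DG Sal and 40.6, 42.2, 69.0 and 25.6 in DG METH, with no overlap, and 26.8, 200, 56.1 and 112 in CA Sal against 103, 184, 139 and 184 in CA METH, with overlap. The dentate granule neuron marker sums of the same CA Sal libraries were 335, 46.1, 398 and 112 CPM. Their part in the Camk2d values was not tested. Camk2g had the smallest p of the list in the CA, at 88.3, 86.2, 87.7 and 102 CPM in Sal against 82.3, 70.0, 67.8 and 68.1 in METH (-0.34 ± 0.09). Prkd2, a protein kinase D, was the one kinase past an unadjusted p of 0.05 in the NAc (0.42 ± 0.16), and it was also higher in the DG (0.66 ± 0.21).

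Of the 6 calcineurin genes, 2 were higher and 1 lower with METH in the DG (12.8% of all genes past that level) and 2 were lower in the CA (7.16%), with none called. The catalytic subunit gene Ppp3ca had 706, 867, 712 and 488 CPM in DG Sal and 989, 1495, 696 and 1411 in DG METH (0.73 ± 0.27), and -0.54 ± 0.20 in the CA, and the regulatory subunit gene Ppp3r1 had 0.60 ± 0.20 and -0.46 ± 0.15. For the DG effect minus the CA effect, 3 of the 6 were higher and 0 lower with unadjusted p under 0.05, where 15.4% of all genes were past it. The values were 1.26 ± 0.36 for Ppp3ca, 1.05 ± 0.27 for Ppp3r1 and 0.45 ± 0.21 for Ppp3cb. Rcan2, a calcineurin regulator, was at -0.77 ± 0.25 in the DG. Among 7 other zinc-dependent HDACs only Hdac11 was past an unadjusted p of 0.05 in any region, at -0.81 ± 0.29 in the DG. Its high value of 276 CPM in DG Sal was in replicate 3, the library with striatal markers. In the HDAC3 complex, Tbl1x was past it in the CA (0.30 ± 0.08). Of 6 14-3-3 genes tested, Ywhah was lower in the CA (-0.28 ± 0.12) and Ywhaz in the SVZ (-0.33 ± 0.13), and of the MEF2 coactivators and kinases none was past it in any region.

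Of 7 MEF2 target genes known from neurons, 1 was lower in the DG and 2 in the SVZ at that level, none of them called, and none was past an unadjusted p of 0.05 in the NAc or the CA. Pcdh10, a protocadherin in MEF2-dependent synapse elimination, held 191, 243, 245 and 120 CPM in DG Sal and 106, 135, 137 and 117 in DG METH (-0.69 ± 0.22). In the SVZ, where Mef2a was lower, the immediate early gene Arc held 48.4, 52.8, 124 and 108 CPM in Sal and 36.9, 30.5, 41.8 and 41.1 in METH, with no overlap (-1.14 ± 0.32), and Nr4a1 was at -1.23 ± 0.47. The general immediate early list moved with these, since 3 of its 6 genes were lower in the SVZ at an unadjusted p under 0.05 (list median -1.35). Its part in the Arc and Nr4a1 values was not tested.

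Elsewhere the gene with the smallest p of a list did not reach an unadjusted p of 0.05. In the NAc these included Hdac11 (-0.28 ± 0.15), Ywhaz (-0.17 ± 0.19), Ppp3cc (0.18 ± 0.09), Mapk14 (-0.10 ± 0.16) and Pcdh10 (0.33 ± 0.17). In the DG they were Ywhag (0.33 ± 0.17), Tbl1xr1 (0.14 ± 0.09) and Mapk14 (0.24 ± 0.13), and in the CA Hdac10 (0.22 ± 0.16), Crebbp (0.04 ± 0.08) and Pcdh10 (0.34 ± 0.18). The SVZ had Hdac2 (-0.33 ± 0.22), Ppp3cb (-0.39 ± 0.18), Tbl1xr1 (-0.24 ± 0.19) and Mapk14 (-0.21 ± 0.19).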

How the data were processed

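Gene counts were deposited by the authors as whole-number read counts, 1 file per library. The authors trimmed reads with cutadapt 2.7, aligned them to rn6 with STAR 2.5.2b and counted them with featureCounts by gene name and without strand, per the labels, the file headers and the study's methods. RNA was total RNA, rRNA-depleted. Samples were grouped by region and treatment from the labels. Here the counts were filtered with filterByExpr, normalized by the upper quartile and tested with edgeR 4.0.16 (R 4.3.3) quasi-likelihood tests, with Benjamini-Hochberg adjustment over all genes tested. The authors used upper-quartile normalization with RUVr, for which the number of factors was not given in the sources used here, so RUVr fits were alternatives, beside DESeq2 1.42.0. CPM were computed with the upper-quartile library size. SE is the absolute log2 fold change over the root of F. The fits were tested on simulated data. Ep300, Pecam1 and Foxj1 were not analysed here, and 1 gene that the naming rule picks is not reported here.

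The members, the lists and the comparison of the METH effect between DG and CA were chosen with earlier results of these data known. Genes named are the 7 members; the gene with the smallest unadjusted p in each related list and region; and the genes most like each member. Other named list genes, the covariate of file-header prefix (called run) and the summed SVZ libraries were chosen after their values were seen. Unadjusted p-values under 0.05 describe a count beside its background and are not calls.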

Additional observations from a re-analysis of the deposited data

Results flagged for a closer look

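Single libraries stood far from the other 3 of their group for 5 of 56 sets of member and group, where chance flags about 1 in 20. The gap to the nearest library, as a share of the group's range, was 0.8494 for Hdac4 in NAc Sal (replicate 4, highest), 0.9837 for Mef2a in NAc METH (replicate 3, lowest), 0.8599 for Mef2c in CA METH (replicate 1, highest), 0.8595 for Mef2c in SVZ METH (replicate 1, highest) and 0.84 for Mef2d in SVZ Sal (replicate 1, lowest). The NAc METH library had low striatal markers and the SVZ Sal library high thalamic markers. The NAc Sal library held 750 CPM of pallial glutamatergic neuron markers, against 11.2 to 125 in the other NAc Sal libraries. The SVZ METH library held 563 CPM of them, against 29.9 to 215 in the other SVZ METH libraries. The part of these markers in the values was not tested.

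The METH effect differed between DG and CA at an unadjusted p under 0.05, with none past the adjusted threshold by edgeR, for Hdac5 (DG minus CA, -0.953916 on the log2 scale), Hdac7 (-0.52696) and Mef2a (0.739221).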

How the results depend on the processing

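Signs are compared only where a value exceeded its SE in one setting or the other. The count of members called stayed at 0 under TMM, RLE, no filter and the count matrix in the comparisons run with them. It did not under these settings. For METH in the CA it was 1 with RUVr 4 (Hdac5). For the DG effect minus the CA effect it was 1 with DESeq2 (Hdac5, adjusted p = 0.0025) and 2 with RUVr 4 (Hdac5, Mef2a). For any region difference of the METH effect it was 2 with RUVr 2 and 2 with RUVr 4 (Hdac5 and Mef2d). For any region difference in saline it was 1 with DESeq2, 1 with RUVr 2 (Hdac4) and 2 with RUVr 4 (Hdac4 and Hdac9), with a leave-one-out range of 0 to 1. With all 32 samples, a setting that averages Sal and METH in each region, it was 2 (Hdac4 and Hdac9). RUVr is the step the authors describe, but its factors absorb spread within groups. The share of all genes called in these settings is not given here, so the counts have no background beside them.

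Values that reversed with all 32 samples were Hdac5, DG against other regions, -0.045, and Mef2d, SVZ against other regions, -0.18. That setting averages Sal and METH in each region, so it is not a comparison in saline. With the run as covariate, Hdac7 in the NAc, -0.21, Hdac4 in the DG, 0.40, and Mef2c in the DG, 0.68, reversed as well. Run here is the prefix in the file headers, which do not say what it stands for. With the run as covariate Hdac5 was at 0.54 in the CA and -0.32 in the DG, while Mef2a in the CA was -0.28. Only run JJ held both DG groups, so these DG values rest on Sal replicate 3, with striatal markers, against METH replicates 1 and 2. The latter are METH libraries of doubtful number. In the NAc only run Bo-RNA3 held both groups, and in the CA the values rest on Sal replicates 3 and 4. Runs are tied to groups, so run and METH cannot be fully told apart. The SVZ libraries had a run of their own, so run and region cannot be told apart there.

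Sal and METH libraries of the same replicate number did not deviate together (correlations from -0.74 to 0.37), so replicate numbers do not pair Sal with METH. NAc and CA Sal libraries of the same replicate number had correlations of 0.10 to 0.29 for the 4 pairs, although NAc Sal replicate 1 was most like CA Sal replicate 4. The METH libraries of these 2 regions gave -0.07 to 0.20. With the replicate block in the saline fit the members called stayed at 0 in each region comparison, and Hdac4 over regions had an adjusted p of 0.0382 by edgeR. In the METH comparisons with the replicate block, Hdac5 in the DG had an unadjusted p of 0.0777 and Mef2a in the SVZ 0.0901 by edgeR, and the difference between DG and CA was -0.97 for Hdac5. Unadjusted p exceeded 0.05 for Hdac5 in the DG without Sal replicate 1 or 4 or METH replicate 1 or 2, and for Mef2a in the DG without METH replicate 1 or 4. The 3 members past it over the 4 regions ranged from 1 to 5 under the other alternatives, and were 1 in 13 of 32 fits with a library left out.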
